A study of Homo sapiens with 3 samples.

Results

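The YAP/TEAD genes are the nuclear effectors of the Hippo pathway, described here as 10 listed genes together with the receptor gene AXL. The 10 genes were chosen by symbol, with earlier results of these data known, and all 10 were found among the 19220 genes of the count table. They are the coactivator genes YAP1 and WWTR1, the DNA-binding partners TEAD1, TEAD2, TEAD3 and TEAD4, the kinase gene LATS2, the scaffold gene AMOTL2, and the target genes ANKRD1 and AXL. RNA-seq values were taken from 1 labelled library each of 3 lines: CAL27, an oral squamous cell carcinoma (OSCC) line labelled WT and kept drug-free; CAL27/5FU (the 5FU line), labelled 5-fluorouracil resistant and kept in 10 μM 5FU; and CAL27/OXA (the OXA line), labelled oxaliplatin resistant and kept in 10 μM OXA. All lines were grown in the same serum-containing medium, and all are labelled as the cell line CAL27. The 5FU line was selected by the authors in rising drug over months, each resistant line is represented by a single derivative, and both are labelled as held in drug, so that selection and current exposure cannot be told apart. The study asked which genes differ between parental and resistant cells.

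In the Hippo pathway, the MST kinases (genes STK3 and STK4) activate the LATS kinases, and LATS phosphorylates YAP and its paralog TAZ (gene WWTR1), which holds both proteins in the cytoplasm. When the kinases are quiet, YAP and TAZ enter the nucleus, bind TEAD proteins and switch on genes such as CCN1, CCN2 and ANKRD1. LATS2 and AMOTL2 are themselves TEAD target genes that act back on YAP and TAZ. Because the main control is phosphorylation, mRNA levels of YAP1 and WWTR1 do not report how active the proteins are. In squamous carcinoma the pathway is known for its links to growth, invasion and drug tolerance, and AXL, a receptor tyrosine kinase, is a known TEAD target.

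The libraries held 37297713 to 43455488 counts. Read counts were scaled to library size (CPM), and "higher" or "lower" means a log2 ratio of scaled counts past 2-fold. Each table also has a second column named for each line, which matches no sample label used here and was left out, so the values rest on 1 library per line, replicates were not compared and p-values are not given. The 95% intervals beside the ratios come from the Clopper-Pearson method applied to both counts of a gene, and cover counting error only. Levels of different genes were compared only as FPKM, which divides by gene length. The keratinocyte gene KRT5 had 46083 to 286124 counts, but was lower in both resistant lines, with log2 ratios of -2.64 and -2.17. Of 8 squamous epithelial markers, 6 were lower in CAL27/5FU and 4 in CAL27/OXA, beside 6.72% and 9.28% of all tested genes. Their summed level was 5358 FPKM in CAL27, 1378 in the 5FU line and 2170 in the OXA line. KRT5, KRT14, KRT6A and PKP1 were lower in both resistant lines, and TP63 and SFN in CAL27/5FU alone. KRT14 had 58222, 948 and 8423 counts (log2 ratios -5.94 and -2.98), and PKP1 had log2 ratios of -4.39 and -5.49. EPCAM and CDH1 stayed within 2-fold in both. Of 7 fibroblast or mesenchymal markers, COL3A1 and THY1 had 0 counts in all 3 libraries and DCN at most 8. The most counted of them, COL1A1, had 1387, 1068 and 1050 counts (log2 ratios -0.38 and -0.59), PDGFRB had log2 ratios of 0.62 and 0.89, and COL1A2 and LUM were higher in both resistant lines, with a summed level of 7.51, 11.9 and 14.9 FPKM over the list. Of 4 leukocyte markers (summed level 48.9 to 69.1 FPKM), the defining PTPRC had at most 2 counts in any library, CD68 had 3143, 1827 and 5055 counts, and CD14, with 637, 1290 and 341 counts, was higher in the 5FU line and lower in the OXA line. Of 3 endothelial markers (0.318 to 2.24 FPKM), PECAM1 had at most 13 counts and KDR at most 6, and CDH5, with 43, 338 and 163 counts, was higher in both resistant lines (log2 ratios 2.91 and 1.69). The part of these markers in the results on YAP/TEAD genes was not tested.

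Among the 10 genes, the targets AXL and ANKRD1 were higher in both resistant lines, and the coactivators were within 2-fold everywhere. In CAL27/5FU, 2 of 10 were called higher and 0 lower, beside 8.46% and 6.72% of the 13676 tested genes. In CAL27/OXA, 2 of 10 were higher and 1, TEAD2, was lower, beside 6.54% and 9.28% of tested genes. In CAL27/OXA against CAL27/5FU, 0 of 10 were higher and TEAD2 alone was lower, beside 4.18% and 8.38%. The median log2 ratio of the 10 genes was 0.15 in CAL27/5FU and 0.09 in CAL27/OXA against CAL27, where the medians of all tested genes were -0.0035 and 0.0055. The comparisons of the resistant lines with CAL27 share the CAL27 library. All 10 genes passed the filter of a mean of at least 10 counts, ANKRD1 only through the resistant lines.

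**Figure D1:**
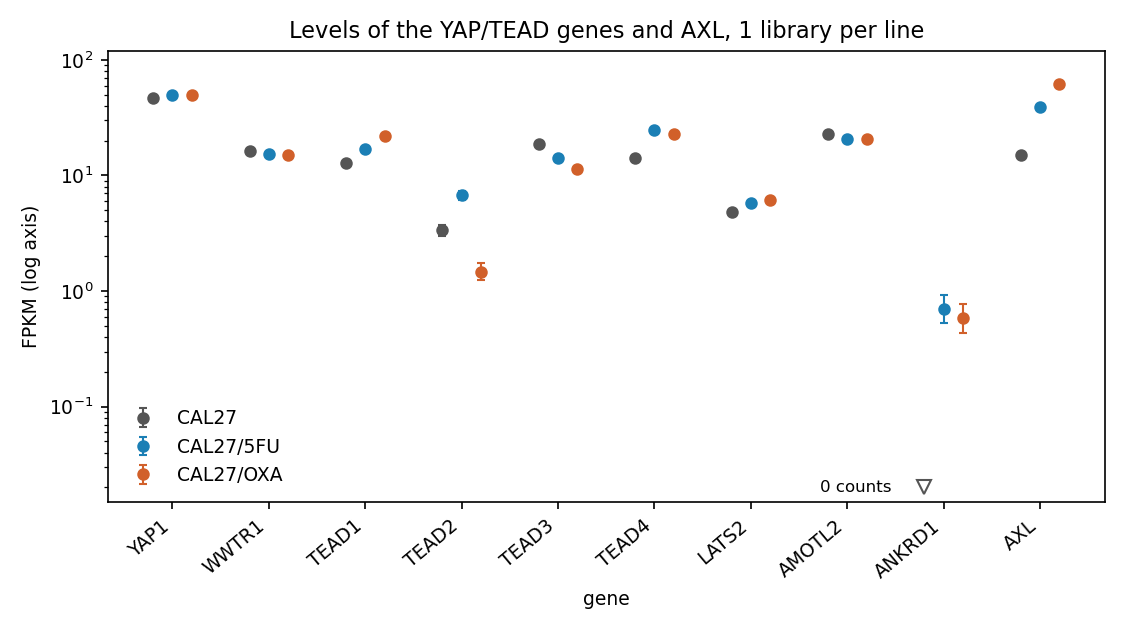
FPKM on a log axis for the 10 genes in CAL27, CAL27/5FU and CAL27/OXA, 1 library each; bars are exact Poisson 95% intervals of the counts, and the open triangle marks ANKRD1 with 0 counts in CAL27. AXL goes from 15.1 FPKM in CAL27 to 39.1 and 61.5 in the resistant lines, while YAP1 lies between 47.1 and 50.2 in all lines.

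YAP1, the main coactivator gene, had 10389 counts in CAL27, 9786 in the 5FU line and 11500 in the OXA line. Its level was 47.1, 49.7 and 50.2 FPKM, so the lines lay close together. The log2 ratio to CAL27 was -0.09 in CAL27/5FU (95% interval -0.13 to -0.05) and -0.04 in CAL27/OXA (-0.08 to -0.0045). Both signs turned positive under scaling by total counts, at 0.08 and 0.09. YAP1 was the most abundant of the 10 genes per length in CAL27 and CAL27/5FU.

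WWTR1, which encodes TAZ, had 3413 counts in CAL27, 2898 in the 5FU line and 3263 in the OXA line. Its log2 ratio to CAL27 was -0.24 (-0.31 to -0.17) in CAL27/5FU and -0.25 (-0.32 to -0.18) in CAL27/OXA, so both resistant lines lay slightly under the parental line. Under scaling by total counts these ratios were -0.07 and -0.12, of the same sign but outside the intervals. Between the resistant lines the log2 ratio was -0.01 (-0.08 to 0.06), an interval that includes 0. Per length, the FPKM of YAP1 was 2.91 times that of WWTR1 in CAL27, 3.23 times in the 5FU line and 3.37 times in the OXA line. WWTR1 lies on chromosome 3 (149517235 to 149736714, minus strand, GRCh38), and the median log2 ratio of the 10 tested genes nearest to it was -0.42 in the 5FU line and -0.17 in the OXA line.

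The TEAD genes differed from each other in how they moved. TEAD1 and TEAD4 had positive ratios in both resistant lines, TEAD3 negative ones, and TEAD2 a positive ratio in CAL27/5FU and a negative one in CAL27/OXA. TEAD proteins share a DNA-binding domain and recognise the same motif. The summed TEAD level was 49.0 FPKM in CAL27, 62.5 in the 5FU line and 57.9 in the OXA line.

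TEAD1, broadly expressed in adult tissues, had 5064 counts in CAL27, 5958 in the 5FU line and 9057 in the OXA line. Its log2 ratio to CAL27 was 0.23 (0.17 to 0.28) in CAL27/5FU and 0.65 (0.60 to 0.70) in CAL27/OXA. CAL27/OXA was the highest of the 3 libraries, with a log2 ratio of 0.42 (0.37 to 0.47) to CAL27/5FU. Its share of the summed TEAD FPKM was 26.2% in CAL27, 27.1% in the 5FU line and 38.2% in the OXA line. The median log2 ratio over its 10 closest tested neighbours on chromosome 11 was -0.0041 in CAL27/5FU and 0.36 in CAL27/OXA.

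TEAD2, the TEAD gene best known from embryonic tissue, had 301 counts in CAL27, 542 in the 5FU line and 138 in the OXA line. Its log2 ratio to CAL27 was 0.84 (0.64 to 1.05) in CAL27/5FU, under 2-fold, and -1.30 (-1.62 to -1.02) in CAL27/OXA. The resistant lines thus lay on opposite sides of CAL27, and the log2 ratio of CAL27/OXA to CAL27/5FU was -2.14 (-2.44 to -1.88). Its share of the TEAD FPKM was 6.83%, 10.8% and 2.55% in CAL27, CAL27/5FU and CAL27/OXA. Under scaling by total counts the ratio in CAL27/5FU was 1.01 and past 2-fold, and from FPKM with a pseudocount of 1 the ratio in CAL27/OXA was -0.81 and within 2-fold. TEAD2 lies on chromosome 19 (49340595 to 49362457, minus strand), where CD37 and DKKL1 overlap its ends on the plus strand. Without strand, reads in these overlaps cannot be told apart, and CD37 had 6 to 13 counts and DKKL1 0 to 2.

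TEAD3 had 2326 counts in CAL27, 1580 in the 5FU line and 1489 in the OXA line. Both resistant lines lay under CAL27, with log2 ratios of -0.56 (-0.66 to -0.47) and -0.83 (-0.93 to -0.74), each within 2-fold. In CAL27 it was the most abundant TEAD gene per length, at 37.9% of the summed TEAD FPKM. It held 22.6% in CAL27/5FU and 19.8% in CAL27/OXA.

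TEAD4 had 1029 counts in CAL27, 1593 in the 5FU line and 1721 in the OXA line. The log2 ratio to CAL27 was 0.62 (0.51 to 0.74) in CAL27/5FU and 0.55 (0.44 to 0.67) in CAL27/OXA, and the interval between the resistant lines (-0.17 to 0.03) includes 0. TEAD4 was the most abundant TEAD gene in both resistant lines, at 39.4% and 39.5% of the summed TEAD FPKM, and its level was 14.2 FPKM in CAL27. In CAL27/OXA its Poisson interval (21.8 to 24.0 FPKM) overlapped that of TEAD1 (21.7 to 22.6 FPKM), so the leading TEAD gene was not resolved there.

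**Figure D2:**
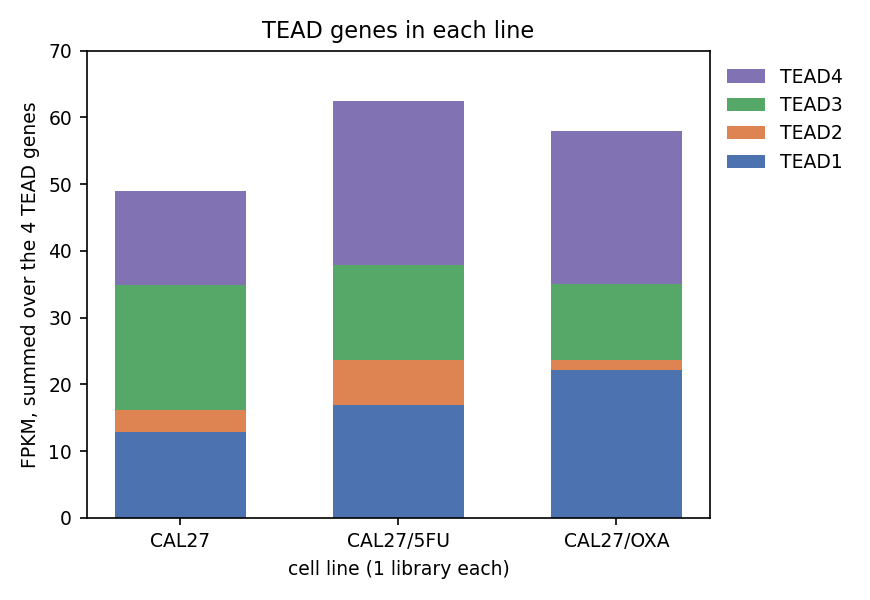
Stacked bars of FPKM, scaled by total counts, for TEAD1, TEAD2, TEAD3 and TEAD4 in CAL27, CAL27/5FU and CAL27/OXA, 1 library each, with no error drawn. The total goes from 49.0 to 62.5 and 57.9 FPKM, TEAD3 shrinks from 18.6 to 14.2 and 11.4 FPKM, and TEAD2 is thinnest in CAL27/OXA at 1.48 FPKM.

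LATS2, the Hippo kinase that phosphorylates YAP and TAZ, had 1115 counts in CAL27, 1185 in the 5FU line and 1474 in the OXA line. The log2 ratio to CAL27 was 0.08 in CAL27/5FU, with an interval (-0.04 to 0.20) that includes 0, and 0.21 (0.10 to 0.33) in CAL27/OXA. AMOTL2, an angiomotin family scaffold that binds YAP at cell junctions, had 4770 counts in CAL27, 3876 in the 5FU line and 4451 in the OXA line. Its log2 ratio to CAL27 was -0.31 (-0.37 to -0.24) in CAL27/5FU and -0.29 (-0.35 to -0.23) in CAL27/OXA. Both feedback genes were therefore within 2-fold in either line. The 10 tested neighbours of AMOTL2 on chromosome 3 (134355874 to 134375479) had median log2 ratios of -0.45 in CAL27/5FU and -0.32 in CAL27/OXA, of the same sign as the ratios of AMOTL2.

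ANKRD1, which encodes a nuclear ankyrin repeat protein and is a widely used readout of YAP and TAZ, had 0 counts in CAL27, 52 in the 5FU line and 50 in the OXA line. Against the floor of 3 counts in CAL27, this was at least 17.3-fold higher in CAL27/5FU and at least 14.6-fold higher in CAL27/OXA. The counting interval of the log2 ratio, which needs no floor, began lower, at 3.76 in CAL27/5FU and 3.52 in CAL27/OXA, and had no upper limit. The resistant lines did not separate, at 1.33 and 1.13 CPM with a log2 ratio of -0.23 (-0.83 to 0.35). The level stayed low in all lines, at 0.706 FPKM in CAL27/5FU and 0.583 in CAL27/OXA. From FPKM with a pseudocount of 1 both ratios were under 2-fold, at 0.77 and 0.66. Its 10 nearest tested genes on chromosome 10 had median log2 ratios of 0.06 and 0.19, and 2 of them were higher and 1 lower in CAL27/5FU, and 1 higher and 1 lower in CAL27/OXA.

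AXL had 2864 counts in CAL27, 6605 in the 5FU line and 12103 in the OXA line, or 73.5, 168.8 and 272.5 CPM. It rose in both resistant lines, and CAL27/OXA was the highest. The log2 ratio to CAL27 was 1.20 (1.14 to 1.26) in CAL27/5FU and 1.89 (1.83 to 1.95) in CAL27/OXA. Between the resistant lines the log2 ratio was 0.69 (0.65 to 0.73), which is 1.61-fold. Per length, AXL ranked 5 of the 10 genes in CAL27, 2 in the 5FU line and 1 in the OXA line, where it passed YAP1. In CAL27 its Poisson interval overlapped those of WWTR1 above and TEAD4 below. AXL lies on the plus strand of chromosome 19 (41219203 to 41261766), and its 10 nearest tested genes had median log2 ratios of -0.33 in CAL27/5FU and -0.22 in CAL27/OXA, opposite in sign to AXL. None of these neighbours was called higher in either resistant line, and 2 were lower in CAL27/OXA.

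**Figure D3:**
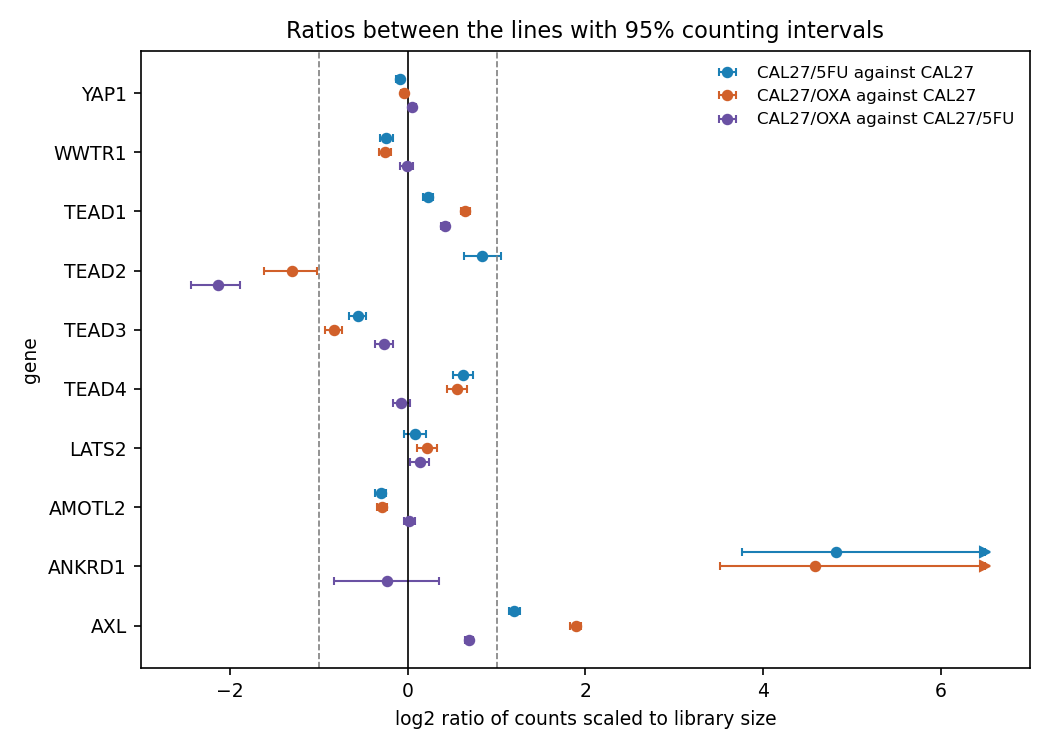
Log2 ratios of scaled counts for the 10 genes in the 3 comparisons, with exact 95% counting intervals; dashed lines mark 2-fold, and the arrowheads on ANKRD1 stand for intervals with no upper limit because CAL27 had 0 counts, and the position of its points depends on the prior count. AXL and ANKRD1 lie right of the 2-fold line against CAL27, and TEAD2 lies left of it in CAL27/OXA at -1.30.

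TEAD proteins bind the motif GGAATG, whose reverse complement on the opposite strand reads CATTCC. They often bind beside AP-1, whose motif was searched as TGANTCA. Both strands were searched in the RefSeq promoter windows of GRCh38.p14, which run from 250 bases before to 50 after a start site. Windows were given for 8 of the 10 genes, and not for TEAD1 and TEAD4. A TEAD motif was found in 5 of their 12 windows, 1 each for YAP1, LATS2, AMOTL2, ANKRD1 and AXL, beside 14% of all 35116 windows. Genes with and without a higher level thus both held it. The AP-1 pattern was matched in 1 of the 12 windows, that of ANKRD1, with the letters TGATTCA. It was matched in 7.71% of all windows. The sequences printed next belong to genes called higher in both resistant lines, with the letters of a match in capitals. For ANKRD1 (chromosome 10, minus strand), 30 bases around each match are shown. In GENCODE 29 the gene starts further upstream than in RefSeq, so that 30 of the 30 bases around the motif at -128 and 13 of those around the AP-1 motif lie in an annotated exon. The stretches are at chr10:90921290-90921319, chr10:90921198-90921227 and, for the AP-1 motif, chr10:90921264-90921293.
ANKRD1 TEAD motif at -220: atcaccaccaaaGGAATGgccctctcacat
ANKRD1 TEAD motif at -128: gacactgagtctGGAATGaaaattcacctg
ANKRD1 AP-1 motif at -195: acatttcttccTGATTCAcatattcagcag

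CCN2, whose promoter is a classic TEAD target, held 3 TEAD motifs in its window, at -169, -104 and -95 from the start site. A share of 0.128% of all windows held at least 3, and 1.37% held at least 2, as ANKRD1 does. NUAK2, a listed target, also held 2, with log2 ratios to CAL27 of -0.25 in CAL27/5FU and 0.01 in CAL27/OXA. NT5E, which was higher in both resistant lines, held none. Windows were given for 16 of the 22 target genes listed below, and 9 of these 18 windows held a TEAD motif. Of the 2 AXL start sites in the table, the window of the downstream one held 1 motif, at -212, and the other held none. The CCN2 stretch is chr6:131951374-131951622 on the minus strand and the AXL stretch is chr19:41226505-41226754 on the plus strand. No annotated exon of the gene itself covers either stretch, and exons of other genes were not checked. A match describes these letters and was not tested as a binding site.
CCN2: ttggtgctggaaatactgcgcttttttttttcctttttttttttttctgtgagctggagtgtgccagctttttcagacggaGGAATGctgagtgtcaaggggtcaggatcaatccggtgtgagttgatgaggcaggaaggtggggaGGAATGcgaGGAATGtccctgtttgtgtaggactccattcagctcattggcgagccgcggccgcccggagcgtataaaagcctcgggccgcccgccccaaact
AXL: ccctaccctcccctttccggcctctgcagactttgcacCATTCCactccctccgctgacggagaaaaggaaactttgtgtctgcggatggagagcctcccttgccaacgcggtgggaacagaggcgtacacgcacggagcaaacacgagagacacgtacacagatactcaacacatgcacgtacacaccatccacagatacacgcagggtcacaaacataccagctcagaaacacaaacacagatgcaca

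A wider list of 22 YAP/TAZ target genes, which includes LATS2, AMOTL2, ANKRD1 and AXL, was set beside the 10 genes. In CAL27/5FU, 6 of the 22 were higher and 1 lower, and in CAL27/OXA 9 were higher and 1 lower. Over all tested genes the shares were 8.46% higher and 6.72% lower in CAL27/5FU, and 6.54% and 9.28% in CAL27/OXA. The list was written with earlier results of these data known, so this comparison describes the list and is not a test. The median log2 ratio of the list was 0.45 in CAL27/5FU and 0.43 in CAL27/OXA, and ratios above 0 were found for 14 of 22 genes in each. Setting ANKRD1 to its bound could not move either median, because the bound also lies far above the middle of the list. A filter of a mean of at least 50 counts, which removes ANKRD1, gave list medians of 0.40 for the 5FU line and 0.32 for the OXA line. The genes higher in both lines were ANKRD1, AXL, CCN1, CCN2, NT5E and TGFB2.

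CCN1 (listed as CYR61), a secreted matricellular protein, had 1853 counts in CAL27, 9579 in the 5FU line and 11753 in the OXA line. Its log2 ratio to CAL27 was 2.36 (2.29 to 2.44) in CAL27/5FU and 2.47 (2.40 to 2.55) in CAL27/OXA. CCN2 (listed as CTGF), its paralog, had 226, 907 and 1004 counts, with log2 ratios of 1.99 (1.79 to 2.21) and 1.95 (1.75 to 2.18). Both resistant lines lay far above CAL27 for these genes and near each other, with log2 ratios of CAL27/OXA to CAL27/5FU of 0.11 for CCN1 and -0.04 for CCN2. NT5E, the ectoenzyme CD73, had 2640, 13104 and 15947 counts and log2 ratios of 2.30 and 2.40. TGFB2, a secreted TGF-β ligand, had 26 counts in CAL27, 988 in the 5FU line and 66 in the OXA line. The rise of TGFB2 was therefore mostly in CAL27/5FU, where its log2 ratio was 5.14 (4.68 to 5.86) against 1.10 (0.48 to 1.87) in CAL27/OXA. With FPKM the second value was under 2-fold, at 0.80 and 0.18 for pseudocounts of 0.1 and 1.

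FJX1, F3 and RBMS3 were called higher in CAL27/OXA and not in CAL27/5FU. FJX1, a Golgi-resident four-jointed homolog, had 5965, 8748 and 29209 counts in CAL27, CAL27/5FU and CAL27/OXA, and its log2 ratio of CAL27/OXA to CAL27/5FU was 1.56 (1.52 to 1.59). F3, which encodes tissue factor, had 25232, 44074 and 65018 counts, so both lines were above CAL27, with log2 ratios of 0.80 and 1.18. RBMS3, an RNA-binding protein gene, had 44, 48 and 141 counts. IGFBP3, which encodes a secreted IGF-binding protein, went the other way and fell in both lines. It had 261616 counts in CAL27, 50305 in the 5FU line and 20373 in the OXA line, with log2 ratios of -2.39 and -3.87. The summed level of the 22 genes was 2960 FPKM in CAL27, 1584 in the 5FU line and 1562 in the OXA line, so the sum moved against the count of genes. IGFBP3 alone made up 2387 FPKM of it in CAL27, 514.3 in the 5FU line and 178.8 in the OXA line. MYOF, a membrane repair protein of the ferlin family, had log2 ratios of -0.43 and -0.89, and PTPN14, a phosphatase that restrains YAP, had -0.57 and -0.64.

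**Figure D4:**
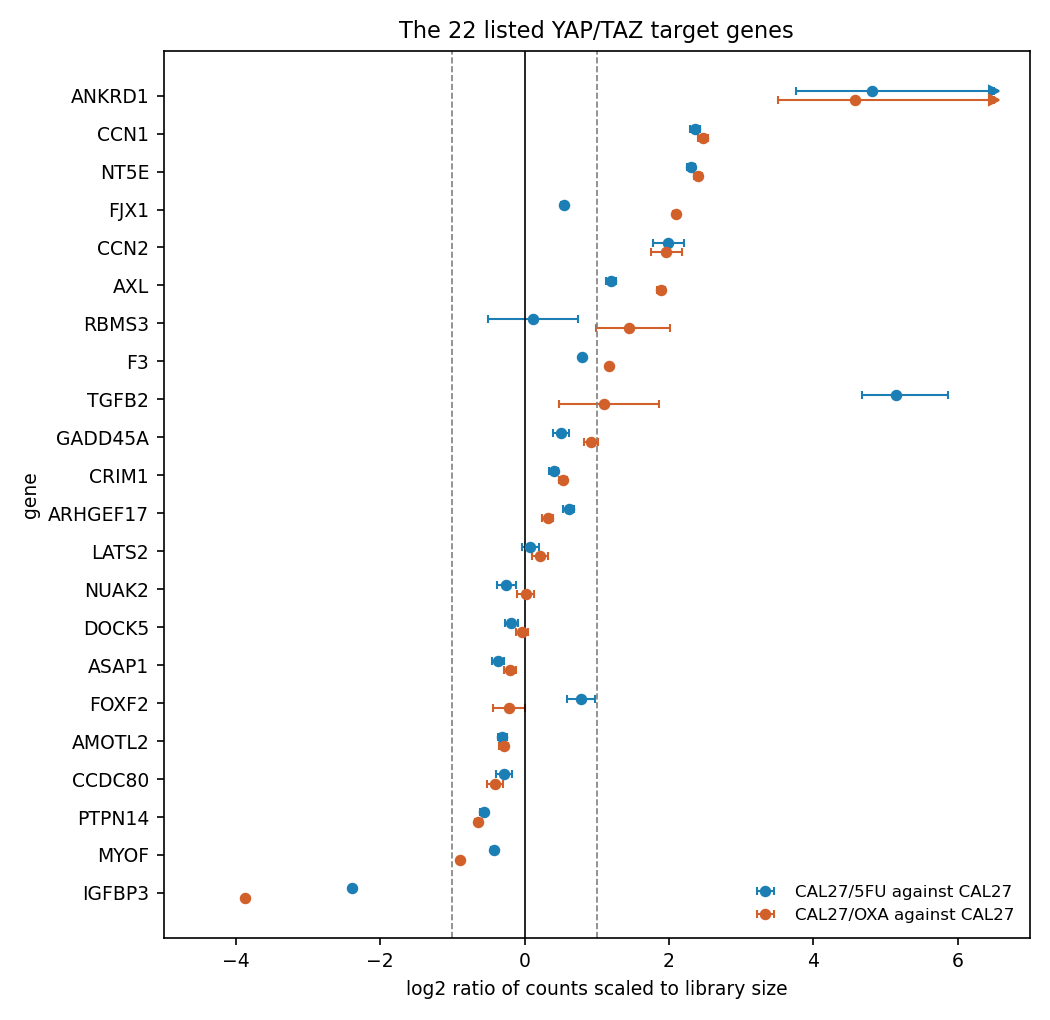
Log2 ratios of CAL27/5FU and CAL27/OXA to CAL27 for the 22 listed target genes, ordered by the ratio in CAL27/OXA, with exact 95% counting intervals and 2-fold as dashed lines; arrowheads mark intervals with no upper limit. The lines differ most at TGFB2 (5.14 and 1.10), FJX1 (0.55 and 2.10) and IGFBP3 (-2.39 and -3.87).

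Upstream of YAP and TAZ, the 7 genes of the Hippo kinase core were all within 2-fold in each comparison, as were most tested genes. Of all tested genes, 8.46% were higher and 6.72% lower in CAL27/5FU, and 6.54% and 9.28% in CAL27/OXA. Between the resistant lines the shares were 4.18% and 8.38%. The median log2 ratio of the 7 genes was -0.10 in CAL27/5FU and 0.04 in CAL27/OXA. STK3, which encodes the kinase MST2, had the lowest ratios of the core, with 1228, 811 and 754 counts and log2 ratios of -0.60 (-0.74 to -0.48) and -0.89 (-1.03 to -0.76). MOB1B, a LATS cofactor gene, had the highest ratio in CAL27/OXA, 0.67 (0.53 to 0.81). Of 19 upstream regulators and junctional scaffolds, 1 was higher and 1 lower in CAL27/5FU, and 0 were higher and 1 lower in CAL27/OXA, near the shares of all tested genes (8.46% and 6.72%, then 6.54% and 9.28%). AMOT, the founding angiomotin gene, was the lower one in both, with 96 counts in CAL27, 46 in the 5FU line and 5 in the OXA line. Its log2 ratio was -1.04 in CAL27/5FU, with an interval (-1.61 to -0.55) that crosses the 2-fold line, and -3.96 (-6.11 to -3.18) in CAL27/OXA. DCHS1, a protocadherin that is a ligand of FAT4, was the higher one, with 2, 27 and 3 counts and a log2 ratio of 2.88 in CAL27/5FU (1.76 to 6.87), and it passed the filter on low counts only through that library. NF2, which encodes the tumor suppressor merlin, had log2 ratios of 0.47 and 0.56, and WWC1, which encodes its partner KIBRA, had 0.53 and 0.65.

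Among the other TEAD cofactor genes, VGLL1 was lower in CAL27/OXA, with 55 counts in CAL27, 35 in the 5FU line and 14 in the OXA line. The counting interval of its log2 ratio in CAL27/OXA ran from -3.12 to -1.30. VGLL3 had 458, 587 and 995 counts, with log2 ratios of 0.35 and 0.93. VGLL4, which encodes a repressor that competes with YAP for TEAD, had log2 ratios of -0.14 and -0.16.

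AXL belongs to the TAM receptors with TYRO3 and MERTK, whose ligands are GAS6 and PROS1. AXL was the most abundant TAM receptor in every line, at 68.8% of the summed TAM receptor FPKM in CAL27, 80.0% in the 5FU line and 87.4% in the OXA line. TYRO3 had 1076, 1197 and 1452 counts and stayed within 2-fold. MERTK had 52 counts in CAL27, 228 in the 5FU line and 63 in the OXA line, and was higher in CAL27/5FU alone, with a log2 ratio of 2.09 (1.69 to 2.59). GAS6, the ligand of AXL, had 8352, 10682 and 16043 counts, with log2 ratios of 0.35 (0.31 to 0.39) and 0.75 (0.71 to 0.79). PROS1, which encodes protein S and binds TYRO3 and MERTK, had 1420 counts in CAL27, 826 in the 5FU line and 3823 in the OXA line. PROS1 thus lay under CAL27 in CAL27/5FU (log2 ratio -0.79) and rose in CAL27/OXA (1.24).

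AP-1 factors bind beside TEAD at many enhancers, and 7 of their genes were listed. FOSL1, which encodes FRA1, rose in both lines, with 2805 counts in CAL27, 8377 in the 5FU line and 21063 in the OXA line. Its log2 ratio was 1.57 (1.51 to 1.63) in CAL27/5FU and 2.72 (2.66 to 2.78) in CAL27/OXA, and CAL27/OXA was the highest, as for AXL. JUN had 2204, 3002 and 5354 counts and was higher in CAL27/OXA, with a log2 ratio of 1.09. FOS fell in both lines, with 603, 294 and 301 counts, and FOSL2 fell in CAL27/OXA, with 11753, 6536 and 5654 counts. The other AP-1 genes, FOSB, JUNB and JUND, had negative ratios within 2-fold in both lines.

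The genes with the pattern most like each of YAP1, ANKRD1 and AXL were taken from 11532 genes whose mean count was 100 or more, by the distance between log2 CPM centred over the 3 libraries. With 3 points a close match is easy to find, and 861 of these genes lay within 0.1 of YAP1. For AXL, 5 genes lay within 0.1, and the nearest were TUSC3 (204, 487 and 867 counts), HMGA2 (6137, 14956 and 25988 counts) and ARG2 (482, 1048 and 2034 counts). For ANKRD1, no gene lay within 0.1, and the nearest were SP140 (13, 407 and 476 counts), SHISA2 (27, 532 and 473 counts) and HMCN1 (7, 196 and 134 counts). With 0 counts in CAL27, the distances from ANKRD1 depend on the prior count of 2. Its log2 ratio in CAL27/5FU was 6.78 with a prior count of 0.5 and 3.57 with 5. ANKRD1 had a mean of 34 counts, under the 100 required of its matches. For YAP1 the nearest were NXF1, PSMA4 and MT1F.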

How the data were processed

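Total RNA of CAL27, CAL27/5FU and CAL27/OXA cells was made into NEBNext Ultra libraries and sequenced by Novogene on an Illumina platform. The submitters' processing notes name CASAVA 1.8, HISAT2 2.0.5 and the build GRCh38. The counting tool, annotation and strandedness are not given in the sources used here. The authors deposited read counts per gene symbol (19220 genes, not normalized) and FPKM values (19225 genes), which are scaled by total counts: for 100% of 14367 genes with counts in every library, both tables gave a single gene length within 0.1%. Each table has 3 further columns of per-sample values, a second one named for each line. They match no sample label used here and were left out, so every statement rests on 1 library per line by that choice.

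TMM scaling in edgeR 4.0.16 (R 4.3.3) used the 3 libraries, and log2 CPM had a prior count of 2. The 13676 genes averaging 10 or more counts were tested. Intervals are exact Clopper-Pearson 95% intervals on pairs of counts (scipy 1.17.1). A library at 0 was set to a floor of 3 counts for the fold bounds only. The log2 ratios kept the 0 with the prior count of 2, and the intervals kept the 0 as it was. The DESeq2 test of the study was not run, since 1 library per line was used. The ratio and interval code was tested on simulated data. Neighbours are the 5 nearest tested genes on each side in GENCODE 29 (GRCh38). Promoter sequences are RefSeq's. Older symbols were used for CCN1 and CCN2. The genes named are the 10 genes, the genes of the listed pathways and the 3 genes nearest in pattern to YAP1, ANKRD1 and AXL. The genes and lists were chosen with earlier results of these data known, the lists from general knowledge. A comparison of protein sequences was not made. Alternatives were scaling by total counts, by DESeq2 1.42.0 size factors or by the upper quartile, other filters and prior counts, FPKM with a pseudocount of 1 or 0.1, and intervals wholly past 2-fold.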

Additional observations from a re-analysis of the deposited data

Results flagged for a closer look

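For 11 of the 81 tested genes on the lists, the ratios to CAL27 had opposite signs in the 2 resistant lines with both counting intervals clear of 0. The same count was not made over all tested genes, so whether 11 of 81 is unusual cannot be told. With 1 library per line, the difference between lines was not tested. Among the 10 YAP/TEAD genes the signs were opposite in this way for TEAD2 alone, whose log2 ratio of CAL27/OXA to CAL27/5FU was -2.14. For the AXL family ligand PROS1 the same ratio was 2.03. Among Hippo regulators it was 0.72 for AMOTL1, -0.48 for LIMD1, -0.46 for TAOK3, -0.28 for TAOK1 and 0.15 for MOB1A. The opposite signs of MOB1A and TAOK1 depend on the scaling: in FPKM, scaled by total counts, both resistant lines lay above CAL27, at 52.7, 55.2 and 59.5 for MOB1A and 10.6, 13.8 and 11.0 for TAOK1. Among cell type markers it was 1.41 for TP63, 1.16 for SFN, -2.10 for CD14 and 1.28 for CD68.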

How the results depend on the processing

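No paired analysis was possible because 1 library per line was used, the second columns named for the lines having no sample label here, and for the same reason no library was left out in turn. Under total counts the median of all tested genes moved to 0.17 in CAL27/5FU and 0.14 in CAL27/OXA against CAL27, and the median of the 22 targets to 0.63 and 0.56; with FPKM and a pseudocount of 0.1 the latter were 0.62 and 0.56. In CAL27/OXA the target median was 0.32 with a mean of at least 50 counts, which removes ANKRD1, and 0.35 with FPKM and a pseudocount of 1. Both of these settings left 1 of the 10 genes, AXL, higher in each resistant line, and the second left 0 lower in CAL27/OXA. Across the settings in which it was tested, the log2 ratio of AXL ran from 1.20 to 1.37 in CAL27/5FU and from 1.89 to 2.02 in CAL27/OXA, and that of ANKRD1 from 0.77 to 6.78 and from 0.66 to 6.54. No called gene among the 10 changed its sign. Of all tested genes, 1899 were higher and 1555 lower in CAL27/5FU without a filter beyond 1 count, 1348 and 1925 in CAL27/OXA, and 981 and 1861 in CAL27/OXA against CAL27/5FU. With FPKM and a pseudocount of 1 these were 503 and 311, 368 and 481, and 165 and 437. With a mean of at least 50 counts, 760 were higher in CAL27/5FU and 369 in CAL27/OXA against CAL27/5FU. With the whole interval past 2-fold, 749 were higher and 593 lower in CAL27/5FU, 526 higher in CAL27/OXA, and 319 higher and 709 lower between the resistant lines. Filters and thresholds change how many genes can be counted, and for the other settings the cause was not tested. Low counts limit genes such as ANKRD1, DCHS1, AMOT and VGLL1.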
